A study of Mus musculus with 60 samples.

Results

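The comparison described here set 6 ribosome pulldown libraries of the SA:ANH subtype against 6 of the NS group, 12 libraries of the 60 in the series. They were chosen by their column names, and all genes kept by a filter on low counts were tested, which left 16670 of the 55414 genes in the deposited table. Every library came from DBA2/J mice, an inbred strain, and from the mPFC, the medial prefrontal cortex. The mice carried GFP-L10a, a ribosomal protein fused to a fluorescent tag, and an antibody against GFP drew the tagged ribosomes, with the RNA on them, out of frozen tissue (IP). The labels name the cells of the pulldown aPVT projectors, and name the libraries made without the antibody bulk mPFC (Input). The series describes 5 days of social defeat, repeated attacks by an aggressive mouse. Neither the labels nor the series text used here say which groups were defeated, what the letters of the subtypes stand for, which promoter or virus delivered the tag, or whether the 6 libraries of a group were separate animals. The p-values therefore set the difference between groups against the spread of libraries within a group, and that spread may be technical. The groups used are SA:ANH, its 3 fellow subtypes SA, ANH and RES, and NS, each with 6 IP and 6 Input libraries, and every group shares the strain, the tag and the tissue.

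Projection neurons of the cortex fall into classes by where their axons go. Extratelencephalic neurons of layer 5 send axons to the thalamus, brainstem and spinal cord and depend on the transcription factors Fezf2 and Bcl11b. Corticothalamic neurons, mostly of layer 6, send theirs to the thalamus, and intratelencephalic neurons of the upper and middle layers connect cortical areas with each other and with the striatum. RNA bound to tagged ribosomes reports what such neurons are set to translate, so it differs from total RNA both in cell type and in the RNA that never meets a ribosome.

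The library totals ran from 19208056 to 26054339 counts over the 12 IP libraries. Slc17a7 and Camk2a, which mark excitatory projection neurons, averaged 1762 and 1195 CPM (counts scaled to the effective size of the library) in SA:ANH and 2005 and 1414 CPM in NS. Neurod6, another such marker, went the other way, at 144 CPM in SA:ANH and 123 CPM in NS. Of 16 excitatory neuron markers tested, 5 were higher and 6 lower in SA:ANH, where 11.3% and 8.45% of all genes were. Summed, these 16 had a ratio of SA:ANH to NS of 0.958 (exact two-sided permutation test, adjusted p = 0.0387 over 13 lists). Defining markers of other cells were low: Cx3cr1, P2ry12, Tmem119 and C1qa of microglia, and Cldn5, Pecam1 and Cdh5 of endothelium, averaged 1.80 CPM or less in each group, where Input averaged 1.37 to 65.2 CPM in SA:ANH. Markers of other cells nonetheless differed between the groups. The lists summed here and below were chosen with earlier results of these data known, so their p-values are not independent support. Summed over 28 myelin and oligodendrocyte genes, the level was 425 to 484 CPM in SA:ANH, against 504 to 558 CPM in NS, a ratio of 0.841 (exact two-sided permutation test, adjusted p = 0.00469 over 13 lists). By the same exact permutation test, the 24 astrocyte markers summed to a ratio of 0.940 (adjusted p = 0.00469), the 23 endothelial and mural markers to 1.07 (adjusted p = 0.0241, and 0.0563 by raw library totals) and the 8 hemoglobin and heme genes to 1.58 (adjusted p = 0.00469). Of 17 endothelial and mural markers tested singly, 1 was higher and 0 lower, where 11.3% and 8.45% of all genes were. In SA:ANH the astrocyte sum averaged 868.5 CPM, of which Gfap and Aqp4 gave 1.21 and 1.91 CPM, and the endothelial sum averaged 769 CPM. Both sums thus lay mostly with other members, and which cells those came from was not tested. Mitochondrially encoded RNA summed to 245 to 471 CPM in SA:ANH, against 177 to 234 CPM in NS, and the value of 471 CPM belonged to SA:ANH replicate 6, with the next at 315 CPM. With that library left out, the count of mitochondrially encoded genes called higher fell to 6 of 15, against 11 with it. The part of these cell types and of that library in the results below was not tested except where a value is given.

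In all, 1879 genes were higher and 1409 lower in SA:ANH than in NS (edgeR quasi-likelihood test, Benjamini-Hochberg adjusted p under 0.05), which is 11.3% and 8.45% of the genes tested and 19.7% together. The median log2 fold change of all genes was 0.01. For 6.71% of genes all 6 SA:ANH libraries lay above all 6 NS libraries, and for 3.95% all 6 lay below. In Input, 462 of 18170 genes were higher (2.54%) and 564 lower (3.1%), together 5.65%. The difference in IP was unlike that in Input for 2880 of 18937 genes (15.2%), being more positive in IP for 7.14% and more negative for 8.06%. Below, a log2 fold change is SA:ANH over NS, given ± SE, and the values of a gene are the lowest, highest and median CPM of the 6 libraries of a group.

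Most genes that mark layer 5 extratelencephalic neurons were lower in SA:ANH. Of 22 such markers tested, 15 were lower, 1 was higher and 6 did not pass, with a median log2 fold change of -0.53, where 8.45% of all genes were lower. Over the whole list the summed level was 2763 ± 31.9 CPM in SA:ANH and 3609 ± 57.98 CPM in NS (SD, n = 6 each), a ratio of 0.766 (exact two-sided permutation test, p = 0.00216, the smallest this design gives, and adjusted p = 0.00469). As the list was chosen with earlier results of these data known, this p-value is not independent support. Fewer tagged cells of a type and less RNA per cell cannot be told apart in such libraries. In Input 1 of the 22 was lower and the median was -0.05. With each of the 12 libraries left out in turn, 15 or 16 markers were lower. The oligodendrocyte and astrocyte sums given above were lower in the same libraries, and their part in this result was not tested.

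Fezf2, the transcription factor that selects the extratelencephalic fate, had 109 to 125 CPM (median 121) in SA:ANH, against 157 to 176 CPM (median 172) in NS. Bcl11b, which acts below Fezf2 in guiding their axons, had 83.8 to 106 CPM (median 88.5) in SA:ANH, against 189 to 209 CPM (median 197) in NS. The SA:ANH libraries lay below every NS library for both genes, with log2 fold changes of -0.52 ± 0.05 (edgeR adjusted p = 5.48e-10) for Fezf2 and -1.13 ± 0.07 (edgeR adjusted p = 2.54e-14) for Bcl11b. Bcl6, a transcriptional repressor, had 2.66 to 5.00 CPM (median 4.06) in SA:ANH, against 9.85 to 16.8 CPM (median 13.1) in NS. Its log2 fold change of -1.71 ± 0.19 (edgeR adjusted p = 1.15e-08) was the lowest of the list, and again no library overlapped. Pou3f1, a POU-domain transcription factor of these neurons, had 80.2 to 96.5 CPM (median 82.9) in SA:ANH, against 129 to 153 CPM (median 146) in NS. Crym, a thyroid hormone-binding protein, had 205 to 249.9 CPM (median 241) in SA:ANH, against 325 to 377 CPM (median 359) in NS. Both fell, with log2 fold changes of -0.76 ± 0.06 (edgeR adjusted p = 1.48e-11) for Pou3f1 and -0.60 ± 0.04 (edgeR adjusted p = 2.36e-12) for Crym, and the groups were apart. Kcng1, a modifying subunit of voltage-gated potassium channels, had 53.3 to 70.7 CPM (median 57.6) in SA:ANH, against 96.02 to 120.2 CPM (median 107) in NS, a log2 fold change of -0.86 ± 0.07 (edgeR adjusted p = 3.52e-11). Parm1, a mucin-like membrane protein, stood at -0.73 ± 0.06 (edgeR adjusted p = 4.21e-11).

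**Figure D1:**
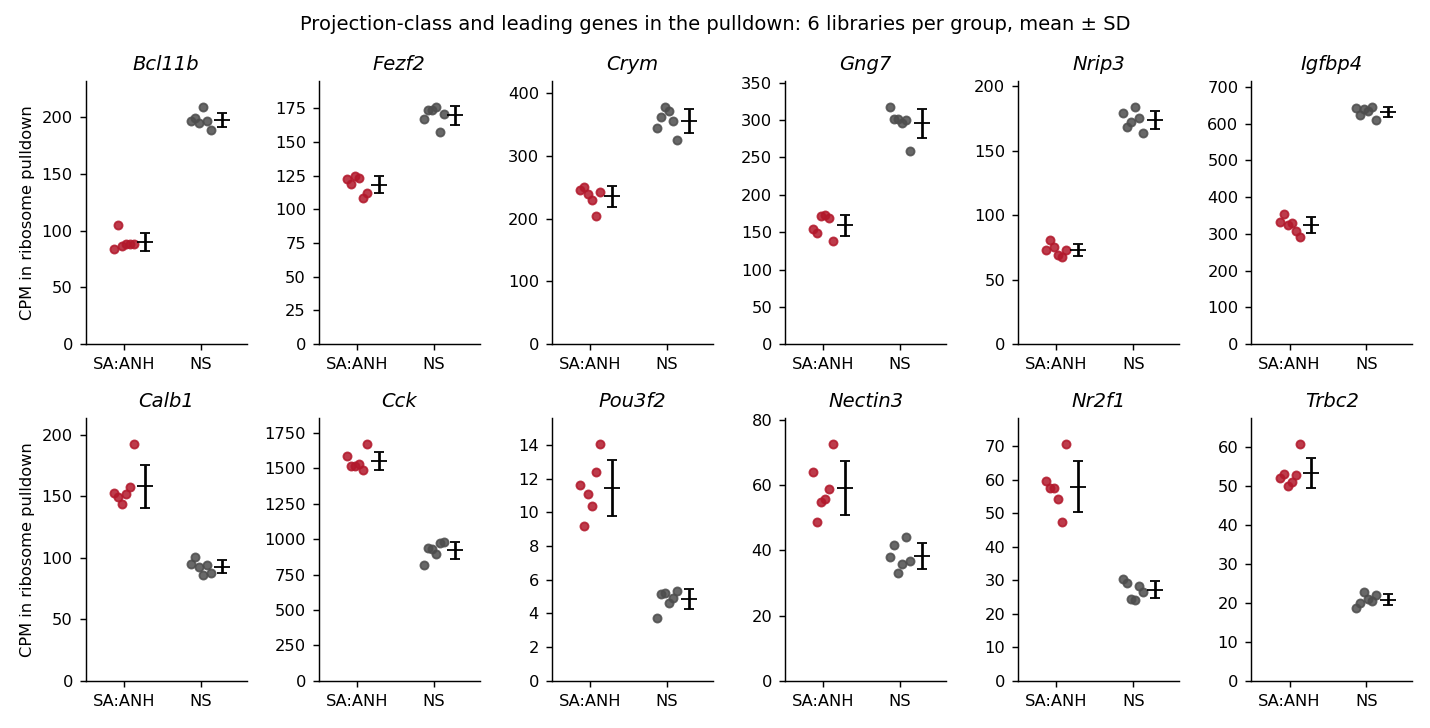
CPM of 12 genes in the ribosome pulldown, with SA:ANH left of NS, 1 point per library, and the mean ± SD of 6 libraries beside the points. In the top row, Bcl11b, Fezf2, Crym, Gng7, Nrip3 and Igfbp4, every SA:ANH library lies below every NS library, and in the bottom row, Calb1, Cck, Pou3f2, Nectin3, Nr2f1 and Trbc2, every SA:ANH library lies above every NS library.

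Markers of layer 6 corticothalamic and subplate neurons were lower as a list too, with 8 of 17 lower, 1 higher and 8 not passing (median -0.50). Over all genes 8.45% were lower and 11.3% higher. Their summed level was 263 ± 7.90 CPM in SA:ANH and 336.5 ± 17.997 CPM in NS (SD, n = 6 each), a ratio of 0.783 (exact two-sided permutation test, adjusted p = 0.00469). Rprm, a cell cycle arrest protein that marks these cells, had 20.1 to 33.3 CPM (median 26.8) in SA:ANH, against 41.4 to 49.999 CPM (median 42.5) in NS, a log2 fold change of -0.71 ± 0.10 (edgeR adjusted p = 2.22e-06) with no overlap. Hs3st4, a heparan sulfate sulfotransferase, stood at -0.57 ± 0.09 (edgeR adjusted p = 9.58e-06) and the ion channel Trpm3 at -0.93 ± 0.17 (edgeR adjusted p = 7.41e-05). Nr4a2, a nuclear receptor of the deep cortex that activity also induces, had 5.48 to 13.1 CPM (median 9.54) in SA:ANH, against 19.9 to 31.5 CPM (median 24.95) in NS, and fell, with a log2 fold change of -1.37 ± 0.17 (edgeR adjusted p = 1.12e-07).

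Intratelencephalic and upper-layer markers moved both ways, where 11.3% of all genes were higher and 8.45% lower. Of 25 tested, 7 were higher, 5 lower and 13 did not pass (median 0.04, and -0.02 without SA:ANH replicate 2), and their summed level did not differ beyond the spread, at 1820 ± 47.8 CPM in SA:ANH and 1846 ± 21.7 CPM in NS (ratio 0.986, exact two-sided permutation test, adjusted p = 0.302). Calb1, a calcium buffer of upper-layer pyramidal cells, had 144 to 192 CPM (median 152) in SA:ANH, against 86.2 to 101 CPM (median 93.5) in NS. Pou3f2, an upper-layer transcription factor, had 9.18 to 14.1 CPM (median 11.4) in SA:ANH, against 3.71 to 5.31 CPM (median 5.07) in NS. SA:ANH stood above NS in every library for both, with log2 fold changes of 0.77 ± 0.07 (edgeR adjusted p = 4.47e-11) for Calb1 and 1.24 ± 0.19 (edgeR adjusted p = 8.39e-06) for Pou3f2. Rasgrf2, a Ras exchange factor, rose by 0.67 ± 0.10 (edgeR adjusted p = 3.64e-06) and the adhesion protein Nectin3 by 0.63 ± 0.11 (edgeR adjusted p = 4.34e-05). Other members of the list fell. Cdh13, a cadherin without a membrane span, had 259 to 278 CPM (median 263) in SA:ANH, against 327 to 364 CPM (median 345) in NS, a log2 fold change of -0.38 ± 0.04 (edgeR adjusted p = 7.03e-09). Inhba, a subunit of activin that neuronal activity induces, stood at -0.58 ± 0.10 (edgeR adjusted p = 5.14e-05).

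Some of the clearest differences lay outside these lists. Igfbp4, a secreted binder of insulin-like growth factors (ENSMUSG00000017493.13, chromosome 11, 98932070 to 98945218 in the deposited table), had 290.3 to 353 CPM (median 327) in SA:ANH, against 610.5 to 644 CPM (median 637) in NS. Its log2 fold change of -0.97 ± 0.04 (edgeR adjusted p = 1.31e-20) had the smallest adjusted p of all genes tested, and the groups were apart. Nrip3 (ENSMUSG00000034825.15, chromosome 7, 109357262 to 109381232) had 67.2 to 80.9 CPM (median 72.9) in SA:ANH, against 164 to 183 CPM (median 174) in NS, a log2 fold change of -1.25 ± 0.06 (edgeR adjusted p = 1.62e-16). Lmo3, a LIM-only transcriptional cofactor, had 53.4 to 71.2 CPM (median 61.2) in SA:ANH, against 116 to 135 CPM (median 126) in NS. Gng7, a G protein gamma subunit, had 138 to 173 CPM (median 161) in SA:ANH, against 259 to 317 CPM (median 301) in NS, and Dner, a transmembrane ligand of Notch, stood at -0.85 ± 0.06 (edgeR adjusted p = 1.7e-13). SA:ANH lay below NS in every library for Lmo3 and Gng7, with log2 fold changes of -1.01 ± 0.06 (edgeR adjusted p = 4.87e-15) for Lmo3 and -0.90 ± 0.05 (edgeR adjusted p = 1.01e-14) for Gng7.

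On the higher side stood Trbc2, a constant segment of the T cell receptor beta chain (ENSMUSG00000076498.3, chromosome 6, 41523664 to 41525286), with 49.97 to 60.9 CPM (median 52.5) in SA:ANH, against 18.7 to 22.9 CPM (median 20.8) in NS. Its log2 fold change was 1.35 ± 0.08 (edgeR adjusted p = 2.72e-15), and reads of this gene and of its near-identical copy Trbc1 could be shared. Nr2f1, a nuclear receptor that patterns cortical areas, had 47.3 to 70.6 CPM (median 57.6) in SA:ANH, against 24.2 to 30.3 CPM (median 27.5) in NS, a log2 fold change of 1.09 ± 0.09 (edgeR adjusted p = 1.55e-11). S100a6, a calcium-binding protein, rose by 1.12 ± 0.11 (edgeR adjusted p = 2.09e-09) and Tnnc1, a troponin C, by 1.35 ± 0.11 (edgeR adjusted p = 3.52e-11). For each of these 4 genes the lowest SA:ANH library was above the highest NS library.

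Genes of the axonal cytoskeleton were more often lower than higher. Of 37 tested, 14 were lower, 6 higher and 17 did not pass (median -0.07), where 8.45% of all genes were lower and 11.3% higher. The neurofilament chains build the large axons of projection neurons, and they fell together. Nefh, the heavy chain, had 41.4 to 53.4 CPM (median 45.2) in SA:ANH, against 68.1 to 82.8 CPM (median 74.4) in NS, a log2 fold change of -0.69 ± 0.08 (edgeR adjusted p = 1.98e-08). Nefl, the light chain, stood at -0.33 ± 0.03 (edgeR adjusted p = 2.78e-09), Nefm at -0.77 ± 0.06 (edgeR adjusted p = 1.2e-12) and alpha-internexin (Ina) at -0.51 ± 0.04 (edgeR adjusted p = 5.74e-12). Map1b, a microtubule-associated protein, had 1123 to 1225 CPM (median 1150.1) in SA:ANH, against 1441 to 1644 CPM (median 1524) in NS, a log2 fold change of -0.42 ± 0.03 (edgeR adjusted p = 7.63e-12). Stmn2, a tubulin-binding protein of growing neurites, went the other way at 0.26 ± 0.03 (edgeR adjusted p = 2e-08). Nefh, Nefm and Nefl are also members of the layer 5 list.

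Ion channel genes split. Of 58 potassium channel genes 10 were higher and 11 lower, and 37 did not pass (median -0.04). Over all genes 11.3% were higher and 8.45% lower. Kcna1, a subunit of the low-threshold Kv1 channels, had 77.2 to 98.1 CPM (median 96.96) in SA:ANH, against 115 to 136 CPM (median 127) in NS, a log2 fold change of -0.46 ± 0.06 (edgeR adjusted p = 4.62e-07). Kcnn2, a calcium-activated potassium channel, stood at -0.51 ± 0.10 (edgeR adjusted p = 0.000263), and Kcnh7, of the ERG family, rose by 0.44 ± 0.09 (edgeR adjusted p = 0.000224). Among calcium channels, the low-threshold subunits moved apart, Cacna1g rising by 0.49 ± 0.09 (edgeR adjusted p = 8.72e-05) and Cacna1h standing at -0.48 ± 0.09 (edgeR adjusted p = 0.00022).

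Most glutamate receptor and synapse lists held more lower than higher genes, where 8.45% of all genes were lower and 11.3% higher. Among 22 AMPA and kainate receptor genes 7 were lower and 3 higher (median -0.13), and among 29 NMDA receptor and postsynaptic scaffold genes 8 were lower and 0 higher (median -0.11). Of 7 metabotropic glutamate receptor genes 1 was lower and 2 were higher (median -0.09). Gria1, an AMPA receptor subunit, had 350.3 to 448 CPM (median 386) in SA:ANH, against 523 to 609 CPM (median 555) in NS, a log2 fold change of -0.53 ± 0.04 (edgeR adjusted p = 2.88e-11) without overlap. Gria4 rose by 0.38 ± 0.07 (edgeR adjusted p = 0.000117), and Cacng2, the auxiliary subunit stargazin, by 0.74 ± 0.11 (edgeR adjusted p = 6.52e-06). Grin1, the obligatory NMDA receptor subunit, stood at -0.25 ± 0.05 (edgeR adjusted p = 0.000597), and the scaffold Shank1 at -0.37 ± 0.06 (edgeR adjusted p = 4e-06). Of 48 synaptic vesicle release genes 15 were lower and 5 higher (median -0.07). Cplx1, a clamp of vesicle fusion, had 334 to 372 CPM (median 357) in SA:ANH, against 437 to 479 CPM (median 462) in NS, a log2 fold change of -0.38 ± 0.04 (edgeR adjusted p = 2.48e-09). Rims3, of the active zone, rose by 0.54 ± 0.08 (edgeR adjusted p = 1.25e-06).

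Among receptors for modulators, 5 of 32 monoamine and acetylcholine receptor genes were lower and 2 higher, where 8.45% and 11.3% of all genes were. Adra2a, the alpha-2A adrenergic receptor through which noradrenaline acts on prefrontal pyramidal cells, had 1.94 to 3.76 CPM (median 3.07) in SA:ANH, against 6.34 to 9.22 CPM (median 8.46) in NS, a log2 fold change of -1.49 ± 0.23 (edgeR adjusted p = 6.72e-06). Htr7, a serotonin receptor, had 4.26 to 10.4 CPM (median 6.44) in SA:ANH, against 9.86 to 15.2 CPM (median 13.1) in NS, a log2 fold change of -0.93 ± 0.24 (edgeR adjusted p = 0.00474). The Adra2a values did not overlap, and those of Htr7 did. Of 20 neuropeptide and cannabinoid receptor genes 1 was lower and 2 were higher (median 0.03). The lower one, Sstr4, a somatostatin receptor, had 2.24 to 3.60 CPM (median 3.11) in SA:ANH, against 5.52 to 9.55 CPM (median 9.01) in NS, a log2 fold change of -1.43 ± 0.20 (edgeR adjusted p = 1.9e-06). Ppp1r1b, a phosphatase inhibitor under the control of dopamine, had 51.5 to 65.6 CPM (median 56.6) in SA:ANH, against 95.4 to 108 CPM (median 99.9) in NS, a log2 fold change of -0.84 ± 0.06 (edgeR adjusted p = 4.77e-12).

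Cell adhesion and axon guidance genes held 24 lower, 9 higher and 34 not passing of 67 tested (median -0.16). Over all genes 8.45% were lower and 11.3% higher. Pcdh8, a protocadherin at synapses, had 53.8 to 74.2 CPM (median 67.9) in SA:ANH, against 105 to 142 CPM (median 118) in NS, a log2 fold change of -0.88 ± 0.08 (edgeR adjusted p = 2.22e-10). Nrp1, a receptor of semaphorins, had 15.98 to 27.3 CPM (median 17.4) in SA:ANH, against 31.5 to 45.2 CPM (median 37.9) in NS, a log2 fold change of -0.99 ± 0.13 (edgeR adjusted p = 4.71e-07). Both genes were lower in every SA:ANH library than in any NS library. Efnb3, an ephrin, stood at -0.59 ± 0.07 (edgeR adjusted p = 6.76e-08), the ephrin receptor Epha7 at -0.48 ± 0.07 (edgeR adjusted p = 1.17e-06), and the protocadherin Pcdh10 rose by 0.52 ± 0.07 (edgeR adjusted p = 1.78e-07). Adhesion genes are long (median 6667 bases in the deposited table), and the differences ran with gene length, as given below.

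**Figure D2:**
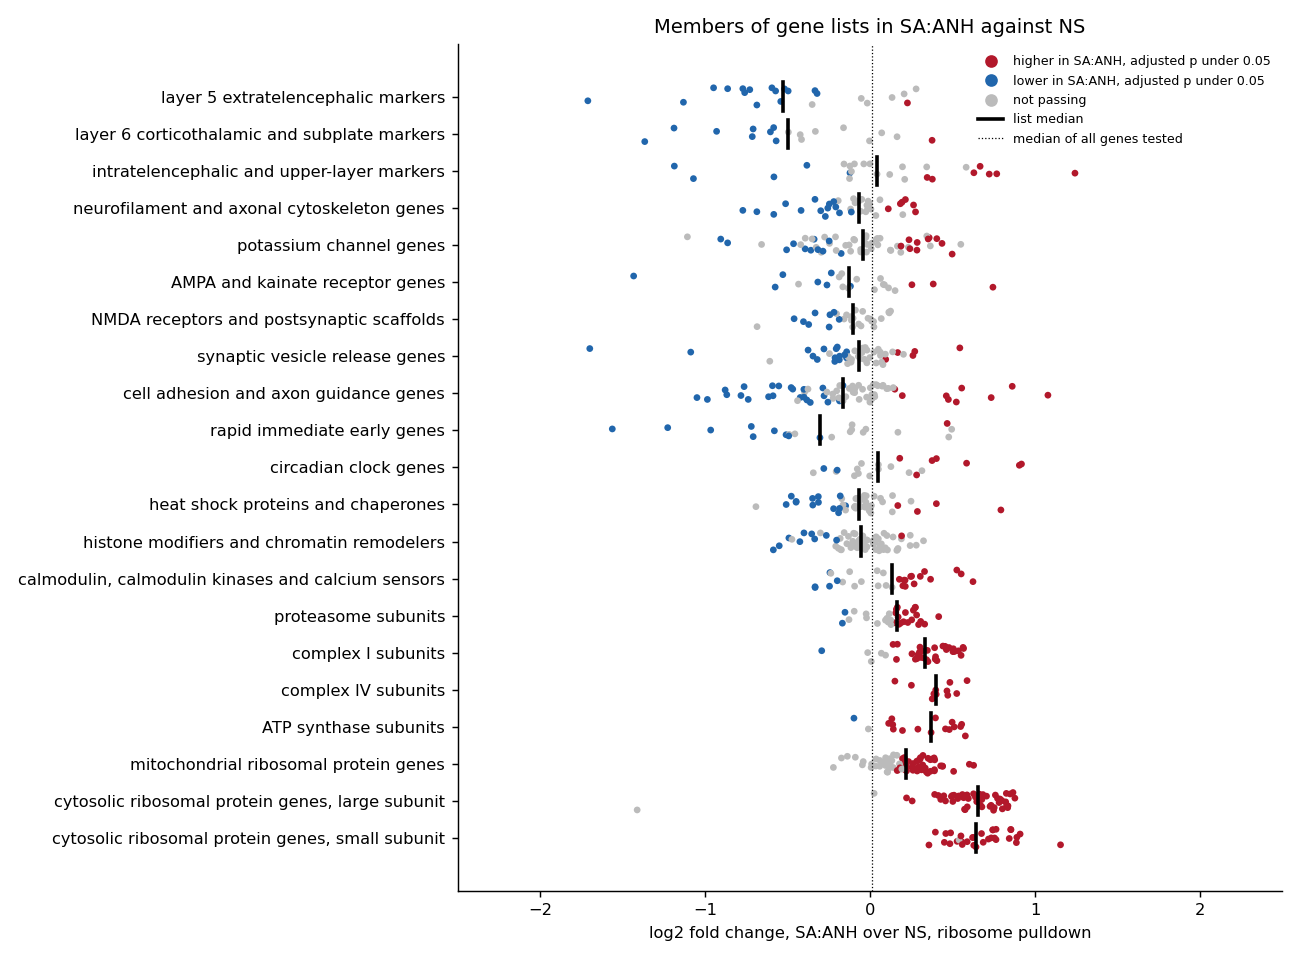
Log2 fold change of each tested member of 21 gene lists, SA:ANH over NS in the pulldown, with 1 point per gene, coloured by call, and a bar at the list's median. The ribosomal protein and respiratory chain lists lie right of the dotted median of all genes (0.01), and the layer 5 and layer 6 lists left of it, and genes beyond 2.5 in either direction are not shown.

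Genes for the cytosolic ribosome were higher almost throughout. Of 83 tested, 80 were higher, 0 lower and 3 did not pass, with a median log2 fold change of 0.65 over both subunits. Over all genes 11.3% were higher. For 78 of the 83 all SA:ANH libraries lay above all NS libraries, which held for 6.71% of all genes. In Input 14 were higher and the median was 0.04, where 2.54% of all genes were higher. The IP difference was more positive than the Input difference for 72 of 83, and for 7.14% of all genes. Rps19, of the small subunit, had 267 to 323 CPM (median 278) in SA:ANH, against 119 to 173 CPM (median 157) in NS, a log2 fold change of 0.89 ± 0.06 (edgeR adjusted p = 8.56e-13). Rps23, which lines the decoding centre, had 108 to 135 CPM (median 122) in SA:ANH, against 57.6 to 70.5 CPM (median 66.1) in NS, a log2 fold change of 0.91 ± 0.06 (edgeR adjusted p = 6.41e-13). Rps27 had 104 ± 14.6 CPM in SA:ANH and 46.9 ± 3.01 CPM in NS (SD, n = 6 each), a log2 fold change of 1.15 ± 0.07 (edgeR adjusted p = 3.53e-14). Rpl10a, the gene of the tagged protein, had 371 to 456 CPM (median 429) in SA:ANH, against 343 to 378 CPM (median 371) in NS, a log2 fold change of 0.22 ± 0.05 (edgeR adjusted p = 0.00193), with overlap between the groups. Reads of the transgene may be counted in these values, which was not tested. Ribosomal protein genes have many processed pseudogenes, and reads could be shared with them. The hemoglobin and mitochondrially encoded sums given above were higher in the same libraries.

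Translation of ribosomal protein messages is known to be controlled through a 5′ terminal pyrimidine (TOP) tract, a C followed by C and T at the very start of the message. Start regions of 3 genes are shown because these genes were higher and carried such a tract beside the annotated start (RefSeq, build GRCm38.p6, 20 bases before to 20 after the start base, tract in capitals).
Rps27, chr3:90213628-90213668, minus strand: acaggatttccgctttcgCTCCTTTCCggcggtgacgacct
Rps23, chr13:90923102-90923142, plus strand: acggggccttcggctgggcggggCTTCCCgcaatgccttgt
Eef1a1, chr9:78481704-78481744, minus strand: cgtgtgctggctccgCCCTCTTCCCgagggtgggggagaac
The tract was sought on the coding strand as C and at least 4 further C or T beginning within 5 bases of the start, and 18.3% of the 32851 promoters in the RefSeq table and 23.9% of those of the genes tested held one. It was found for 30 of 63 ribosomal protein genes with a promoter in the table. Those 30 had a median log2 fold change of 0.59, and the 33 without a tract one of 0.68. As 63 of 83 is under 80%, a comparison of that share with other genes would be void and none is made.

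Other parts of protein synthesis had smaller medians. Beside the counts that follow, 11.3% of all genes were higher and 8.45% lower. Of 77 mitochondrial ribosomal protein genes 45 were higher and 0 lower (median 0.22), with Mrpl33 at 0.63 ± 0.07 (edgeR adjusted p = 4.82e-08). Of 58 translation factors 27 were higher and 1 lower (median 0.14). Eef1a1, the elongation factor whose start region is printed above, had 1235 to 1359.9 CPM (median 1278) in SA:ANH, against 983 to 1069.6 CPM (median 1018) in NS, a log2 fold change of 0.33 ± 0.03 (edgeR adjusted p = 8.35e-10). Among 32 proteasome subunits 19 were higher and 2 lower (median 0.16), with Psma7 at 0.42 ± 0.04 (edgeR adjusted p = 2.44e-09). Heat shock and chaperone genes leaned the other way, with 13 of 45 lower and 4 higher. Hspa5, the main chaperone of the endoplasmic reticulum, had 323 to 377 CPM (median 339.6) in SA:ANH, against 412 to 452 CPM (median 448) in NS, a log2 fold change of -0.35 ± 0.04 (edgeR adjusted p = 1.35e-07), and Calr, which folds glycoproteins there, stood at -0.35 ± 0.04 (edgeR adjusted p = 3.22e-09).

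Nuclear genes of the respiratory chain were mostly higher, where 11.3% of all genes were higher and 8.45% lower. Of 38 complex I subunits 33 were higher and 1 lower (median 0.33), of 11 complex IV subunits 11 were higher (median 0.40) and of 17 ATP synthase subunits 15 were higher and 1 lower (median 0.37). Complex II and III had the smallest median, 0.16, with 9 of 14 subunits higher, 2 lower and 3 not passing. SA:ANH replicate 6, the library with the highest mitochondrially encoded sum, also had the highest Cox6c, Ndufb4 and Atp5l values. Without it 29 complex I (median 0.27), 6 complex II and III, 11 complex IV and 12 ATP synthase subunits were higher. These counts were the same without NS replicate 1 (complex I median 0.28), so the loss of calls was not particular to SA:ANH replicate 6. Cox6c, of complex IV, had 777 to 1008 CPM (median 814) in SA:ANH, against 538 to 694 CPM (median 613) in NS, a log2 fold change of 0.47 ± 0.06 (edgeR adjusted p = 7.03e-08). Uqcrq, of complex III and the highest of the complex II and III list, had 506 to 553 CPM (median 533) in SA:ANH, against 336 to 419 CPM (median 379) in NS, a log2 fold change of 0.49 ± 0.05 (edgeR adjusted p = 4.09e-10). Sdha, the large flavoprotein of complex II, had 540.4 to 624 CPM (median 587) in SA:ANH, against 649 to 709 CPM (median 689) in NS, and fell, with a log2 fold change of -0.22 ± 0.03 (edgeR adjusted p = 2.83e-06). Across the 80 respiratory chain genes tested, 0 were higher and 2 lower in Input. The mitochondrially encoded genes went opposite ways in the fractions. Of 15, 11 were higher in IP and 0 lower (median 0.54), while in Input 0 were higher and 9 lower (median -0.34), and the difference between the fractions passed the test for 14.

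These genes are short, and the differences ran with gene length. Of the 4168 genes with the shortest span from start to end, 17.5% were higher and 4.25% lower in SA:ANH, and of the 4168 with the longest span 6.79% were higher and 13.3% lower. By the length that the deposited table gives, the 4168 shortest genes, of 123 to 1885 bases, held 22.3% higher and 2.52% lower, with a median log2 fold change of 0.15. The 4168 longest held 5.69% higher and 12.3% lower (median -0.04). Of the ribosomal protein genes 65 of 83 were among the shortest, as were 59 of 80 respiratory chain genes. Without those genes and the mitochondrial ribosomal protein genes, the 4005 others of the shortest had a median of 0.14. It was 0.65 for all cytosolic ribosomal protein genes and 0.35 for all respiratory chain genes. The shortest genes took 24.3% to 25.8% of the counts in the SA:ANH libraries, against 20.8% to 22.6% in the NS libraries. In Input their median was -0.06. The part of gene length in the ribosomal and respiratory results was not tested.

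**Figure D3:**
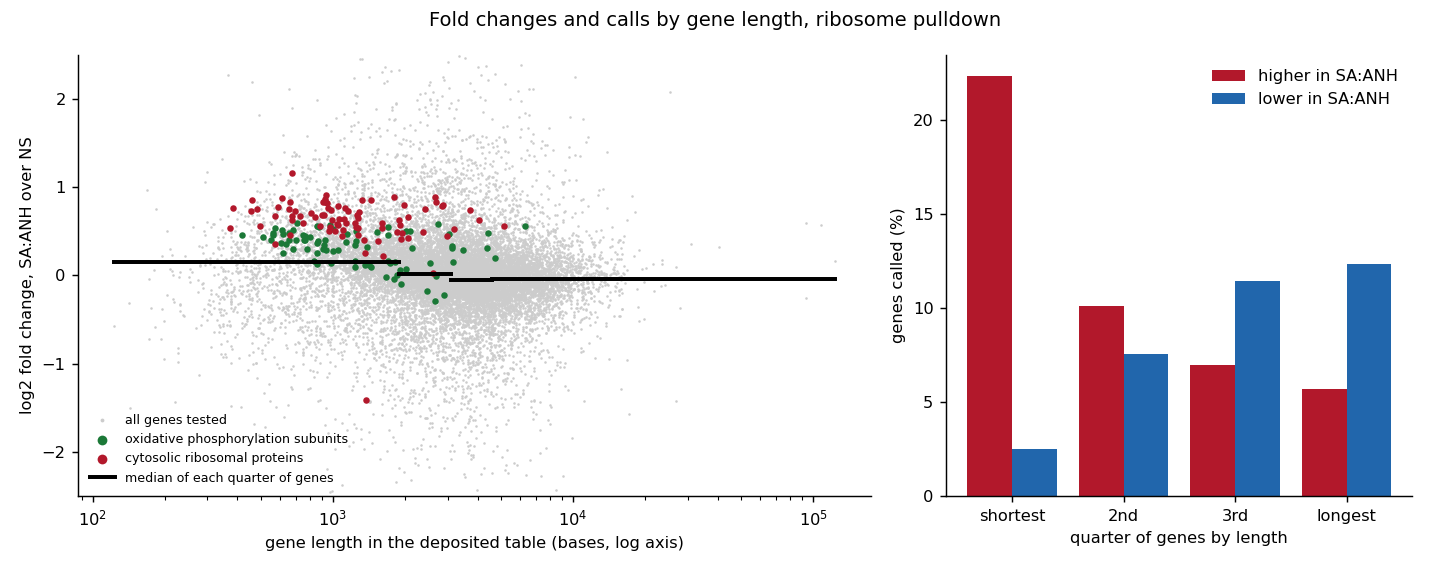
Left, log2 fold change of SA:ANH over NS against gene length (log axis) for all genes tested, with ribosomal protein and respiratory chain genes coloured and bars at the median of each of 4 equal groups of genes by length, points beyond 2.5 in either direction not shown. Right, the percent of genes called in each group, where calls of higher genes run from 22.3% in the shortest to 5.69% in the longest and calls of lower genes from 2.52% to 12.3%.

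Immediate early genes, whose transcription follows neuronal firing within minutes, went in opposite directions in the fractions. Of 21 tested, 9 were lower and 1 higher in IP (median -0.30), where 8.45% of all genes were lower. In Input 10 were higher and 0 lower (median 0.33), where 2.54% of all genes were higher. The difference between the fractions was more negative in IP for 12 of the 21 and more positive for 1, against 8.06% and 7.14% of all genes.

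Fos, the transcription factor most used as a mark of recent activity, had 13.2 to 20.8 CPM (median 16.2) in SA:ANH IP, against 26.05 to 29.03 CPM (median 26.98) in NS IP. In bulk tissue Fos had 35.8 to 49.4 CPM (median 46.5) in SA:ANH Input, against 18.3 to 29.6 CPM (median 21.4) in NS Input. So each SA:ANH library was below each NS library in the pulldown, with a log2 fold change of -0.72 ± 0.11 (edgeR adjusted p = 9.58e-06), and in Input the log2 fold change was 0.97 ± 0.11 (edgeR adjusted p = 4.66e-08). The fitted difference between the fractions, IP less Input, was -1.72 ± 0.16 (edgeR adjusted p = 1.41e-12). Npas4, a transcription factor that neuronal activity induces, had 4.75 to 9.76 CPM (median 8.46) in SA:ANH IP, against 16.1 to 20.2 CPM (median 19.2) in NS IP. In bulk tissue Npas4 had 23.6 to 32.3 CPM (median 27.6) in SA:ANH Input, against 9.29 to 16.8 CPM (median 13.5) in NS Input. Its log2 fold changes were -1.23 ± 0.19 (edgeR adjusted p = 4.82e-06) in IP and 1.03 ± 0.12 (edgeR adjusted p = 9.19e-08) in Input, and the fitted difference was -2.28 ± 0.22 (edgeR adjusted p = 7.39e-12). Egr4 had log2 fold changes of -0.58 ± 0.08 (edgeR adjusted p = 8.41e-07) in IP and 0.33 ± 0.06 (edgeR adjusted p = 0.000934) in Input, with a difference of -0.93 ± 0.10 (edgeR adjusted p = 1.45e-10). Egr1 was lower in IP, at -0.71 ± 0.05 (edgeR adjusted p = 1.14e-12), and stood at 0.13 ± 0.04 (edgeR adjusted p = 0.0519) in Input, with a difference of -0.86 ± 0.06 (edgeR adjusted p = 7.44e-16).

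Dusp1, a phosphatase that ends MAP kinase signalling, had 34.7 to 48.7 CPM (median 39.3) in SA:ANH IP, against 46.5 to 53.4 CPM (median 48.5) in NS IP. In bulk tissue it had 77.3 to 94.8 CPM (median 85.8) in SA:ANH Input, against 46.8 to 53.5 CPM (median 50.6) in NS Input. Btg2, an antiproliferative gene named after its values were seen, had 22.1 to 34.1 CPM (median 26.9) in SA:ANH IP, against 35.4 to 41.5 CPM (median 39.3) in NS IP. The groups overlapped for Dusp1 in IP but not for Btg2. The log2 fold change of Dusp1 was -0.30 ± 0.08 (edgeR adjusted p = 0.00302) in IP and 0.77 ± 0.06 (edgeR adjusted p = 1.08e-11) in Input. That of Btg2 was -0.49 ± 0.12 (edgeR adjusted p = 0.00307) in IP and 0.59 ± 0.07 (edgeR adjusted p = 9.36e-07) in Input. The fitted difference between the fractions was -1.10 ± 0.09 (edgeR adjusted p = 7.67e-14) for Dusp1 and -1.11 ± 0.15 (edgeR adjusted p = 4.68e-08) for Btg2. Their promoters are shown because the genes moved oppositely in the fractions and hold the full cyclic AMP response element TGACGTCA, in capitals (RefSeq, GRCm38.p6).
Dusp1, chr17:26508572-26508632, minus strand: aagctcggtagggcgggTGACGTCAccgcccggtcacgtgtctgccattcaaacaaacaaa
Btg2, chr1:134079285-134079345, minus strand: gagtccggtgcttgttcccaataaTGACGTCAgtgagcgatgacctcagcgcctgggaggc
The element, which reads the same on both strands, begins 143 and 166 bases before the annotated starts. It is held by 1.79% of the promoters in the table and 3.46% of those of the genes tested. Of 21 immediate early genes tested, 16 had a promoter in the table, and only Dusp1 and Btg2 were found to hold the element. Fos, Npas4 and Egr4 also moved oppositely, and no match was found for these. The clock gene Hlf, with a log2 fold change of 0.28 in IP, holds the element too. A link of the element to the opposite movement was not tested. Dusp1 also holds cacgtg, the motif of clock genes described next, in the printed stretch. Jun fell in IP, with a log2 fold change of -0.51 ± 0.07 (edgeR adjusted p = 3.62e-07), and Ier5 was the 1 member that rose, at 0.47 ± 0.05 (edgeR adjusted p = 1.07e-08).

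Clock genes were more often higher than lower in both fractions. Of 21 tested, 7 were higher, 2 lower and 12 did not pass in IP (median 0.05). Over all genes 11.3% were higher and 8.45% lower in IP. In Input 8 were higher and 0 lower (median 0.16), where 2.54% of all genes were higher and 3.1% lower. Dbp, an output gene of the clock with a strong daily rhythm, had 121 to 133 CPM (median 129) in SA:ANH IP, against 62.7 to 72.9 CPM (median 67.1) in NS IP. In bulk tissue Dbp had 144 to 178 CPM (median 156) in SA:ANH Input, against 89.6 to 107 CPM (median 100.2) in NS Input. The log2 fold change was 0.90 ± 0.05 (edgeR adjusted p = 2.5e-16) in IP and 0.68 ± 0.05 (edgeR adjusted p = 7.89e-13) in Input, with no overlap in either fraction. Ciart, a repressor within the clock, had 49.4 to 58.8 CPM (median 50.96) in SA:ANH IP, against 23.01 to 35.5 CPM (median 26.7) in NS IP, a log2 fold change of 0.92 ± 0.12 (edgeR adjusted p = 2.34e-07), and stood at 0.70 ± 0.08 (edgeR adjusted p = 1.96e-07) in Input. Nr1d1, the nuclear receptor REV-ERB alpha, stood at 0.40 ± 0.07 (edgeR adjusted p = 4.44e-05) in IP and 0.43 ± 0.04 (edgeR adjusted p = 6.74e-09) in Input. Bhlhe41, a basic helix-loop-helix repressor, rose by 0.58 ± 0.15 (edgeR adjusted p = 0.00354) in IP. Csnk1d, a kinase that marks PER proteins for decay, was lower in IP, at -0.28 ± 0.06 (edgeR adjusted p = 0.00143), and higher in Input, at 0.16 ± 0.04 (edgeR adjusted p = 0.0159). The labels used here give no hour of collection, so the hour and the subtype cannot be told apart.

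The clock's activators bind the E-box CACGTG, which reads the same on both strands. It was found in the promoters of 5 of 18 clock genes in the RefSeq table in 7.15% of all promoters there and in 11.4% of those of the genes tested. The stretches that hold it are printed for the 2 genes with a promoter match whose rise passed in IP, E-boxes in capitals (RefSeq, GRCm38.p6).
Ciart, chr3:95882258-95882358, minus strand: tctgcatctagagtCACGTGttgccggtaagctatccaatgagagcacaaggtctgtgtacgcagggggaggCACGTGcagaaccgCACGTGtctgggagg
Bhlhe41, chr6:145865520-145865620, minus strand: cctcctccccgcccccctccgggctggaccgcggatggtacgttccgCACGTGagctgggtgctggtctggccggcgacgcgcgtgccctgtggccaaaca
Ciart holds 3 E-boxes, which begin 116, 58 and 44 bases before the annotated start, and Bhlhe41 holds 1, at 153 bases before it. Dbp holds none in the window given.

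**Figure D4:**
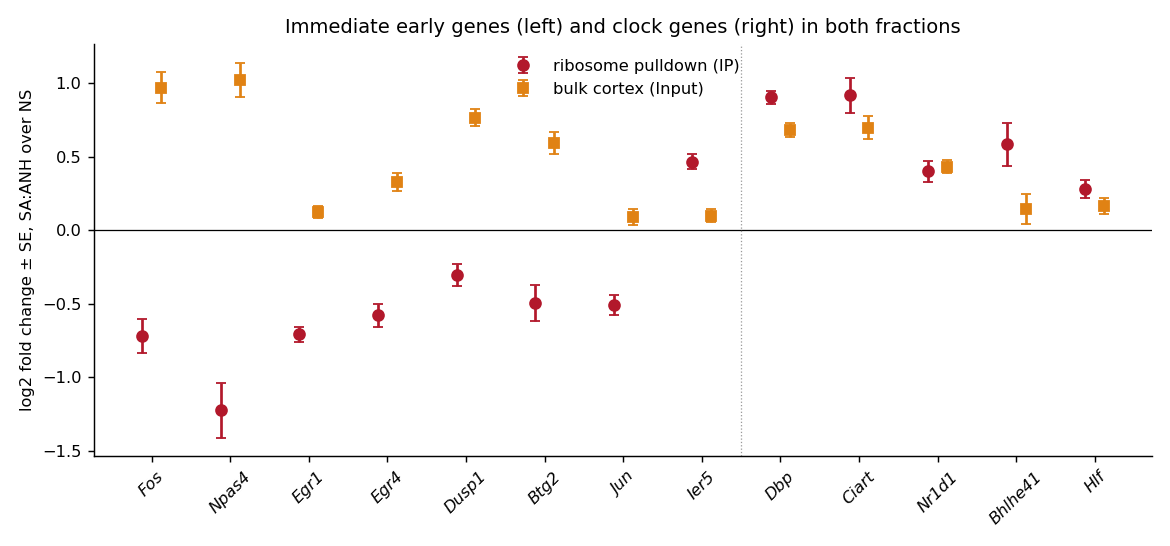
Log2 fold change ± SE of SA:ANH over NS in the ribosome pulldown (circles) and in bulk cortex (squares) for 8 immediate early genes and 5 clock genes. Fos, Npas4, Egr4, Dusp1 and Btg2 lie below 0 in the pulldown and above 0 in bulk cortex, while the 5 clock genes shown lie above 0 in both. Among all 21 clock genes tested, 7 were higher, 2 lower and 12 did not pass in the pulldown. Csnk1d, lower in the pulldown and higher in bulk cortex, is not shown.

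Of 22 genes of the glucocorticoid and stress axis, 4 were lower and 2 higher, where 8.45% and 11.3% of all genes were. Fkbp5, a co-chaperone that glucocorticoids induce, had 13.7 to 21.1 CPM (median 15.9) in SA:ANH, against 23.5 to 31.5 CPM (median 28.03) in NS, a log2 fold change of -0.72 ± 0.14 (edgeR adjusted p = 0.000179). Nr3c2, the mineralocorticoid receptor, had 11.9 to 14.1 CPM (median 12.5) in SA:ANH, against 20.6 to 23.7 CPM (median 22.9) in NS, a log2 fold change of -0.81 ± 0.10 (edgeR adjusted p = 6.08e-08). Both fell in IP, with every SA:ANH library below every NS library. Nfkbia, an inhibitor of NF-kappa-B, rose by 0.49 ± 0.10 (edgeR adjusted p = 0.000624), and Crhr1, the receptor of corticotropin-releasing hormone, by 0.37 ± 0.11 (edgeR adjusted p = 0.013), a call that was lost without SA:ANH replicate 6 (edgeR adjusted p = 0.0521).

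Neuropeptide genes moved both ways, with 7 of 29 higher and 5 lower, where 11.3% of all genes were higher and 8.45% lower. Cck, cholecystokinin, a peptide that cortical pyramidal cells also make (ENSMUSG00000032532.8, chromosome 9, 121318890 to 121324760), had 1491 to 1672 CPM (median 1525) in SA:ANH, against 818 to 980.2 CPM (median 935) in NS. Its log2 fold change was 0.75 ± 0.04 (edgeR adjusted p = 3.82e-15), without overlap, and it was 0.01 ± 0.03 (edgeR adjusted p = 0.922) in Input. Sst and Npy, peptides of interneurons, rose by 0.45 ± 0.07 (edgeR adjusted p = 1.59e-05) for Sst and 0.46 ± 0.09 (edgeR adjusted p = 0.000328) for Npy. Against that, the interneuron enzymes Gad1 and Gad2 were lower, at -0.70 ± 0.21 (edgeR adjusted p = 0.0123) for Gad1 and -0.72 ± 0.15 (edgeR adjusted p = 0.000385) for Gad2. Summed over 24 inhibitory neuron markers, the level did not differ beyond the spread, at 145 ± 7.64 CPM in SA:ANH and 142 ± 12.1 CPM in NS (exact two-sided permutation test, adjusted p = 0.602). Vgf, a granule protein, had 92.4 to 119 CPM (median 115) in SA:ANH, against 167 to 190.3 CPM (median 177) in NS, a log2 fold change of -0.69 ± 0.06 (edgeR adjusted p = 1.42e-10), and Chgb, chromogranin B, stood at -0.43 ± 0.04 (edgeR adjusted p = 5.38e-10). Of the other insulin-like growth factor binders, Igfbp6 rose by 0.36 ± 0.05 (edgeR adjusted p = 3.5e-06) and Igfbp2 by 1.19 ± 0.19 (edgeR adjusted p = 8.01e-06), where Igfbp4 fell.

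Calcium-sensing genes were more often higher. Of 29 calmodulin, calmodulin kinase and calcium sensor genes 14 were higher and 5 lower (median 0.13). Over all genes 11.3% were higher and 8.45% lower. Ncald, neurocalcin delta, had 733 to 769 CPM (median 761) in SA:ANH, against 545 to 612 CPM (median 587) in NS, a log2 fold change of 0.37 ± 0.03 (edgeR adjusted p = 1.42e-10). Hpca, hippocalcin, stood at 0.30 ± 0.03 (edgeR adjusted p = 2.47e-09), and Camk2n2, an inhibitor of calmodulin kinase II, at 0.62 ± 0.08 (edgeR adjusted p = 1.45e-07). The kinase's own alpha and beta subunits were lower, Camk2a at -0.24 ± 0.05 (edgeR adjusted p = 0.000294) and Camk2b at -0.33 ± 0.04 (edgeR adjusted p = 2.78e-07).

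Long noncoding RNAs of the nucleus and of imprinted loci were higher in IP for 8 of 16 and lower for 1 (median 0.55). Over all genes 11.3% were higher and 8.45% lower. Malat1, a nuclear RNA, had 390.4 to 759 CPM (median 464) in SA:ANH, against 223 to 264 CPM (median 232) in NS, a log2 fold change of 1.08 ± 0.12 (edgeR adjusted p = 8.96e-09), and its highest value was that of SA:ANH replicate 6. Snhg11 had 112 to 129 CPM (median 121) in SA:ANH, against 64.98 to 75.9 CPM (median 71.6) in NS, a log2 fold change of 0.78 ± 0.06 (edgeR adjusted p = 9.74e-12), and 0.37 ± 0.03 (edgeR adjusted p = 1.32e-11) in Input. Meg3, of an imprinted locus, rose by 0.55 ± 0.05 (edgeR adjusted p = 2.01e-10), and Peg13 fell, at -0.36 ± 0.06 (edgeR adjusted p = 1.43e-05). Imprinted protein-coding genes held 7 lower and 3 higher of 23, where 8.45% of all genes were lower and 11.3% higher. Cdkn1c, an inhibitor of the cell cycle, had 17.8 to 25.2 CPM (median 23.4) in SA:ANH, against 8.29 to 11.3 CPM (median 10.97) in NS, and rose by a log2 fold change of 1.10 ± 0.11 (edgeR adjusted p = 3.38e-09). The growth regulators Dlk1, at -1.01 ± 0.14 (edgeR adjusted p = 1.39e-06), and Peg3, at -0.41 ± 0.05 (edgeR adjusted p = 1.96e-07), were lower. Of 70 histone modifiers and chromatin remodelers 9 were lower and 1 higher, where 8.45% and 11.3% of all genes were. Kmt2d, a histone methyltransferase, stood at -0.49 ± 0.10 (edgeR adjusted p = 0.000347).

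Further lists held calls of both signs, where 11.3% of all genes were higher and 8.45% lower. Antioxidant and metallothionein genes held 15 higher and 2 lower of 32 (median 0.12), and the slower effector genes of neuronal activity 3 higher and 8 lower of 27 (median -0.14). Glycolysis enzymes held 5 higher and 6 lower of 16, V-ATPase subunits 7 higher and 3 lower of 17, and GABA receptor subunits 2 higher and 4 lower of 16. Cholesterol synthesis genes held 2 of 24 called in each direction, where 11.3% of all genes were higher and 8.45% lower.

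Of the genes of other cell types, 11 of 28 oligodendrocyte markers were lower and 1 higher in IP, where 8.45% of all genes were lower. Astrocyte markers held 4 lower, 1 higher and 19 not passing of 24 (median -0.17). The lowest of them, Gfap, at a level near the floor, had 0 to 1.80 CPM (median 1.55) in SA:ANH, against 2.65 to 7.02 CPM (median 4.81) in NS, a log2 fold change of -1.93 ± 0.34 (edgeR adjusted p = 5.21e-05). Aqp4, also of astrocytes, had 1.17 to 3.19 CPM in SA:ANH, against 1.53 to 3.40 CPM in NS, with overlap. No SA:ANH library reached the lowest NS library for Gfap. In Input 4 of the 28 oligodendrocyte markers were higher and 1 lower, and Gfap was lower there too, at -0.52 ± 0.05 (edgeR adjusted p = 5.84e-09). Of the 6 hemoglobin and heme genes tested 5 were higher in IP and 4 in Input. Hba-a1 had 22.7 to 28.05 CPM (median 23.6) in SA:ANH, against 6.78 to 11.7 CPM (median 9.26) in NS, a log2 fold change of 1.38 ± 0.12 (edgeR adjusted p = 4.85e-11), and its reads could be shared with its near-identical copy Hba-a2.

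SA:ANH was also set against each other subtype in IP, without NS. It differed from SA in 9.53% of genes (815 higher, 773 lower), from ANH in 17.9% (1805 higher, 1172 lower) and from RES in 13.8% (1368 higher, 936 lower). These 3 comparisons share the SA:ANH libraries with each other and with the comparison with NS, so the values are given side by side. Layer 5 markers were lower than in SA for 17 of 22 (4.64% of all genes were lower), lower than in ANH for 12 (background 7.03%) and lower than in RES for 12 (background 5.61%). Of the same markers 1 was higher than in SA, 1 than in ANH and 4 than in RES. Cytosolic ribosomal protein genes were higher than in SA for 9 of 83 (median 0.11, background 4.89%), than in ANH for 79 (median 0.70, background 10.8%) and than in RES for 77 (median 0.41, background 8.21%). The 28 oligodendrocyte markers were lower than in ANH for 24 (median -2.02) and than in RES for 25 (median -2.53), and lower than in SA for 3.

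Several named genes passed the test against all 3 other subtypes. Nrip3 averaged 73.1 ± 4.86 CPM in SA:ANH, 160.3 ± 11.7 in SA, 106 ± 11.6 in ANH, 150.3 ± 11.1 in RES and 174 ± 7.18 in NS (SD, n = 6 each). The log2 difference of SA:ANH was -1.13 ± 0.06 (edgeR adjusted p = 9.03e-16) from SA, -0.54 ± 0.06 (edgeR adjusted p = 2.41e-08) from ANH and -1.04 ± 0.06 (edgeR adjusted p = 7.11e-15) from RES. SA:ANH was the lowest group and ANH the next. Gng7 averaged 159 ± 14.6 CPM in SA:ANH, 254 ± 12.6 in SA, 213 ± 6.04 in ANH, 264 ± 18.9 in RES and 296 ± 19.4 in NS. SA:ANH was again lowest, with log2 differences of -0.68 ± 0.05 (edgeR adjusted p = 7.56e-12) from SA, -0.42 ± 0.05 (edgeR adjusted p = 1.54e-07) from ANH and -0.73 ± 0.05 (edgeR adjusted p = 1.26e-12) from RES. Bcl6 in SA:ANH had log2 differences of -1.48 ± 0.19 (edgeR adjusted p = 3.73e-07) from SA, -1.02 ± 0.19 (edgeR adjusted p = 9.62e-05) from ANH and -1.54 ± 0.19 (edgeR adjusted p = 1.84e-07) from RES.

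Cck averaged 1552 ± 66.6 CPM in SA:ANH, 1064 ± 51.5 in SA, 1067 ± 39.96 in ANH, 979 ± 66.6 in RES and 923 ± 59.99 in NS. It was higher in SA:ANH by 0.54 ± 0.04 (edgeR adjusted p = 6.07e-12) than in SA, 0.54 ± 0.04 (edgeR adjusted p = 7.54e-12) than in ANH and 0.66 ± 0.04 (edgeR adjusted p = 4.47e-14) than in RES. Calb1 had its lowest mean in SA, 61.4 ± 6.81 CPM, and its highest in SA:ANH, 158 ± 17.4 CPM, a log2 difference of 1.36 ± 0.07 (edgeR adjusted p = 3.83e-17). Trbc2 was higher in SA:ANH by 0.88 ± 0.07 (edgeR adjusted p = 3.69e-11) than in SA, 0.86 ± 0.07 (edgeR adjusted p = 6.62e-11) than in ANH and 1.57 ± 0.08 (edgeR adjusted p = 2.77e-17) than in RES. S100a6 was higher by 1.14 ± 0.11 (edgeR adjusted p = 1.78e-09) than in SA, 0.77 ± 0.11 (edgeR adjusted p = 2.09e-06) than in ANH and 0.76 ± 0.11 (edgeR adjusted p = 4.23e-06) than in RES.

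For other genes the place of SA:ANH among the groups varied. Rps27 averaged 104 ± 14.6 CPM in SA:ANH and 95.3 ± 7.36 in SA, against 49.5 ± 2.39 in ANH and 65.3 ± 3.75 in RES. The log2 difference of SA:ANH from SA, 0.13 ± 0.07 (edgeR adjusted p = 0.297), did not pass the test. Mbp, a myelin protein, averaged 112 ± 11.5 CPM in SA:ANH, 166 ± 7.67 in SA, 430.5 ± 8.15 in ANH, 610.5 ± 37.6 in RES and 194 ± 12.8 in NS. Its lowest level was in SA:ANH and its highest in RES, a log2 difference of -2.45 ± 0.05 (edgeR adjusted p = 1.01e-27). Malat1 and Meg3 were lower in SA:ANH than in SA, with log2 differences of -0.89 ± 0.12 (edgeR adjusted p = 6.31e-07) for Malat1 and -0.96 ± 0.05 (edgeR adjusted p = 1.66e-16) for Meg3, and higher than in ANH, with 1.07 ± 0.12 (edgeR adjusted p = 8.53e-09) for Malat1 and 0.76 ± 0.05 (edgeR adjusted p = 2.58e-13) for Meg3.

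**Figure D5:**
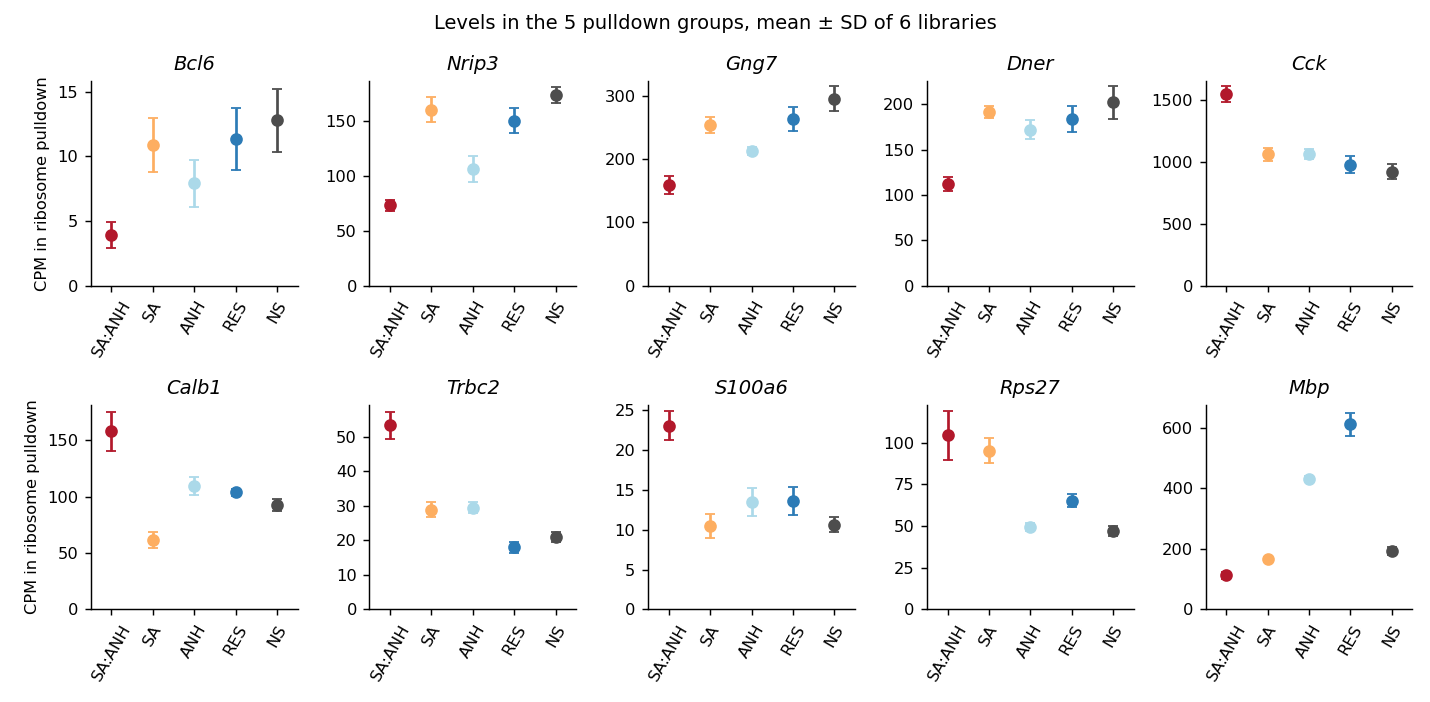
Mean ± SD CPM of 10 genes in the ribosome pulldowns of SA:ANH, SA, ANH, RES and NS, 6 libraries per group. Bcl6, Nrip3, Gng7 and Dner are lowest and Cck, Calb1, Trbc2 and S100a6 highest in SA:ANH, Rps27 is high in SA:ANH and SA, and Mbp is lowest in SA:ANH and highest in RES.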

How the data were processed

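Ribosome pulldown and bulk mPFC RNA were sequenced as paired reads of 100 bases, per the labels' protocols, with TopHat2 2.0.13, Bowtie2 2.2.3 and Trimmomatic 0.32 among the tools in the submitters' processing notes. The deposited values are estimated counts per gene, not normalized, of which 88.4% are whole within 0.000001, as the deposited table shows. No source used here gives the counting tool, its use of strand or the annotation. The notes name build mm10, but 2.88% of 52081 matched genes share a start with the mm10 annotation at hand, so gene coordinates are given as the table has them.

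Counts were rounded, filtered with filterByExpr (edgeR 4.0.16 in R 4.3.3, minimum count 10), scaled by TMM and tested with edgeR's quasi-likelihood test, p-values adjusted by Benjamini-Hochberg and called under 0.05. The 5 groups of a fraction were fitted together, and the difference between fractions over all 60 libraries. CPM values use the TMM factors. Summed CPM of 13 marker lists was tested by the exact two-sided permutation test of 6 against 6 libraries, whose smallest p is 0.00216. In counts simulated for SA:ANH against NS in IP over 16670 genes, the test recovered 13 of 50 genes changed 1.25-fold, 31 at 1.5-fold, 40 at 2-fold and 44 at 3-fold, with 3 false calls. No pair of libraries within SA:ANH or NS in IP agreed within sampling noise. Alternatives were other scaling factors, DESeq2 1.42.0, limma 3.58.1 with voom, no filter, only the groups compared, a replicate block, and each of the 12 libraries left out.

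The gene lists were chosen with earlier results of these data known. Genes were named as the 15 largest rises, the 15 largest falls and the 15 smallest adjusted p among called genes averaging at least 10 CPM in the higher group, up to 6 members per list by p (all members of lists of up to 8), the 10 smallest adjusted p of the difference between fractions, the 8 smallest against each other subtype, and Rpl10a, Fos, Fkbp5 and Bdnf, predicted genes left out. Of these the text gives a part, and Btg2 was added after its values were seen. Promoter sequences are from RefSeq, build GRCm38.p6, 250 bases before to 50 after each start.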

Additional observations from a re-analysis of the deposited data

Results flagged for a closer look

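Of 304 groups of 6 libraries looked at, 23 held 1 library far from the other 5, by a gap to the nearest library over 0.625 of the group's range. Chance alone marks about 1 in 20 groups. SA:ANH replicate 6 was that library in 11 of them. It was the highest for Calb1 (gap over range 0.715), Trbc2 (0.699), Mrpl33 (0.704), Cox6c (0.642), Ndufb4 (0.697), Atp5l (0.633), Malat1 (0.705), Gas5 (0.659), mt-Rnr2 (0.734) and the summed mitochondrially encoded genes (0.690), and the lowest for Csnk1d (0.712). For Malat1 it held 759 CPM, against 390.4 to 499 CPM in the other 5 libraries of its group.

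Other libraries of the SA:ANH pulldown stood apart singly. Replicate 2 was highest for Bcl11b (0.777), replicate 1 highest for Map1b (0.658), Calr (0.771) and the summed oligodendrocyte precursor markers (0.792), and replicate 5 lowest for Kcnn2 (0.729). In the NS pulldown replicate 1 was highest for Rprm (0.781), replicate 6 lowest for Trpm3 (0.626) and Gng7 (0.631), replicate 4 lowest for Chrm3 (0.723), replicate 3 lowest for Bdnf (0.691), and replicate 5 lowest for Smarca2 (0.649) and Cdkn1c (0.849). For Bcl11b, Rprm and Cdkn1c the groups did not overlap all the same.

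The difference between SA:ANH and NS was unlike in IP and Input, by a test of the difference itself, for 1353 genes with a more positive and 1527 with a more negative value in IP (edgeR quasi-likelihood test over 60 libraries). Among the activity genes the IP value less the Input value was -1.72 for Fos, -2.28 for Npas4, -0.86 for Egr1, -0.93 for Egr4, -1.10 for Dusp1 and -1.11 for Btg2. Of the layer 5 markers, Bcl11b had -0.78 and Crym -0.66. It was -1.22 for Nrip3, -0.95 for Igfbp4 and 0.72 for Cck. It was 1.25 for Trbc2 and -0.93 for Mbp.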

How the results depend on the processing

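Across the alternatives, the counts of higher and lower genes in IP ran from 1569 to 2048 and from 1420 to 1753, against 1879 and 1409, and with each of the 12 libraries left out, from 1565 to 1732 and from 1289 to 1491, with 2334 of 3288 calls made every time. The count in Input moved most, with 300 genes higher when the groups compared were fitted alone, against 462. With the replicate block 1908 genes were higher and 1479 lower, and 3189 of the 3288 calls held. The deviations of same-numbered SA:ANH and NS libraries in IP correlated weakly (-4.5e-06 to 0.164, 1 of 6 over 0.1), but 3 of 6 correlated best with their own number. They were not taken as pairs, and these values cannot settle whether they are. IP and Input libraries of 1 number, which the labels do not tie to the same mice, correlated by 0.00807 to 0.199 in SA:ANH (3 of 6 over 0.1) and -0.0321 to 0.0821 in NS (0 of 6). In SA:ANH 4 of 6 correlated best with their own number, and in NS 0 of 6. The difference between fractions was fitted without pairs, and with the block 2596 of its 2880 calls held.

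Mitochondrially encoded genes called higher numbered 6 to 11 with 1 library left out, and 6 without SA:ANH replicate 6. The endothelial sum had a ratio of 1.06 by raw library totals (exact permutation test, adjusted p = 0.0563), against 1.07. A TOP tract was found for 81.0% of ribosomal protein genes with a promoter when sought within 20 bases of the start, against 47.6% within 5, and the wider window held one in 49.4% of all promoters and 55.0% of those of the genes tested. Genes lower among the shortest numbered 105 by the table's length, against 177 by span, a choice made after seeing the data. Crhr1 lost its call without SA:ANH replicate 6, and no named gene with a call changed sign under the alternatives run. Medians near 0 did change sign: intratelencephalic and upper-layer markers (-0.02 without SA:ANH replicate 2, against 0.04), inhibitory neuron markers (0.06 without SA:ANH replicate 4, against -0.08), and the lists of oligodendrocyte precursors, the stress axis, GABA receptors, and neuropeptide and cannabinoid receptors. What depth limits at low levels was not tested.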
